A study of Mus musculus with 20 samples.

Results

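Smooth muscle and pericyte genes are described here in primary mouse sarcomas and in their lung metastases. The group holds 10 genes, chosen by symbol from 51826 genes in the deposited table: Acta2, Actg2, Tagln, Cnn1, Lmod1, Myh11, Des, Rgs5, Cspg4 and Notch3. All 10 were found in the table and all 10 passed the filter on low counts. Total RNA was sequenced from 20 tumour tissues of mice of mixed background, 6 primary tumours (numbered 1 to 6) and 14 lung metastases, each labelled as matched with 1 of them. A primary tumour and its metastases form a matched set: sets 1 and 2 have 4 metastases each, sets 3 and 6 have 2 each, and sets 4 and 5 have 1 each. The labels give no treatment, time, age, tumour genotype or site of the primary tumour. No label ties a sample to an animal, so the spread that p-values measure is that between samples and may be technical. A name such as 2-3 stands for set 2, metastasis 3, and 5-x for the metastasis of set 5, which has no number. Libraries held 20603620 to 36824370 counts. Levels are given as CPM, the counts of a gene scaled to a common library size, after scaling of library sizes by TMM factors.

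Smooth muscle cells of vessel and airway walls contract through actin and myosin filaments, and a set of actin-binding proteins marks their contractile state. Acta2 and Tagln are also made by myofibroblasts and by other mesenchymal cells that tense their cytoskeleton, whereas Myh11 and Lmod1 are held more tightly to smooth muscle. Many of these genes are driven by serum response factor, SRF, which binds CArG boxes in their promoters. Pericytes wrap capillaries, share part of this programme and are recognised by genes such as Rgs5, Cspg4 and Notch3.

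On GRCm38 the contractile genes lie at chr19:34241090-34255590 (Acta2), chr6:83512905-83536265 (Actg2), chr9:45929619-45936058 (Tagln), chr9:22099216-22109630 (Cnn1), chr1:135324807-135368065 (Lmod1) and chr16:14194535-14291372 (Myh11). Des lies at chr1:75360329-75368579, Rgs5 at chr1:169655501-169695813, Cspg4 at chr9:56865033-56899870 and Notch3 at chr17:32120820-32166852. Acta2, Actg2, Tagln, Myh11 and Notch3 are on the minus strand and the others on the plus strand.

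The promoter of Acta2 is shown because CArG boxes are its textbook feature and because Acta2 is a gene on which the results turn. In RefSeq windows of the GRCm38.p6 build, the 250 bases before the start of 7 of the 10 genes were searched, and of these 7 Acta2 held boxes. The genes not searched were Actg2, Tagln and Myh11. Its 2 boxes each have 1 G or C within the A/T core. They are printed with 10 bases on either side (capitals mark the box), on the minus strand at chr19:34255438-34255467 and chr19:34255388-34255417. The GENCODE gene model places both inside an untranslated first exon.
Acta2 upstream box: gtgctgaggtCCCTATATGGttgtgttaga
Acta2 downstream box: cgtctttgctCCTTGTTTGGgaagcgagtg
The boxes begin 84 and 34 bases before the RefSeq start. Of 32851 windows of all genes, 1.47% held a CArG box with a core of A and T alone, 8.59% held a box with at most 1 G or C in the core, and 0.67% held at least 2 of the latter. A box is its own reverse complement in pattern, so the search of 1 strand covers both. A match is a description of letters and not a binding site.

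The actins of smooth muscle have close relatives in skeletal muscle (Acta1) and heart (Actc1), so the starts of the 4 coding sequences are printed to show how far reads can tell them apart. Capitals mark bases that differ from Acta2 in a global alignment. All 4 lie on the minus strand of GRCm38, at chr19:34252494-34252553, chr6:83527382-83527441, chr8:123893638-123893697 and chr2:114051972-114052031.
Acta2: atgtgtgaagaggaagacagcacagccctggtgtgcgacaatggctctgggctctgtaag
Actg2: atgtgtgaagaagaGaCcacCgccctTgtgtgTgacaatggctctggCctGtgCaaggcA
Acta1: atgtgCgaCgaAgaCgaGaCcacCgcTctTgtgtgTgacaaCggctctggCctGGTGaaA
Actc1: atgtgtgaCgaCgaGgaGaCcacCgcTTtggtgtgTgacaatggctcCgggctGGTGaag
Of the 60 bases printed for each, 9 of Actg2, 17 of Acta1 and 14 of Actc1 are mismatched to Acta2. The alignment of Actg2 also skips 3 bases of Acta2 within this stretch, so its letters are shifted against those of Acta2 after the gap. Over the whole coding sequence Acta2 is 84.2% identical to Actg2, 85.4% to Acta1 and 82.6% to Actc1. No window of 50 bases of the Acta2 transcript (0 of 1986) occurs in any of the other 3 transcripts, and none of the 1284 of Actg2 does either.

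Primary tumours 4 and 6 stood apart from the other 18 libraries. The 10 endothelial markers summed to 2.49 and 5.90 CPM in them, against 312 to 697 CPM in the other 4 primary tumours and 157 to 2730 CPM in metastases. Ptprc, the pan-leukocyte surface phosphatase, was at or below 0.967 CPM in both and at least 30.5 CPM in the other 18. Vim, the intermediate filament of mesenchymal cells, was 6890 and 4860 CPM in primary tumours 4 and 6, and 1660 to 5450 CPM elsewhere. Xist, the RNA of the inactive X chromosome, was 5780 CPM in primary tumour 4 and 1.56 CPM in the metastasis labelled as matched with it, and at most 273 CPM in the 18 others. Xist differed within sets 2 and 3 too. It was 82.9 CPM in 2-1 against 0.123 CPM in primary tumour 2. In 3-2 it was 273 CPM, against 0.057 CPM in primary tumour 3 and 0.655 CPM in 3-1. Whether primary tumours 4 and 6 are tissue of the labelled kind, and whether any set is matched as labelled, was not tested. Every difference within a set, and the block, rests on those labels. Because primary tumours 4 and 6 stood apart, results are given with and without sets 4 and 6. Sets 2 and 3 stay in both of those fits. Metastases 2-3 and 2-4 stood apart in another way. Alb, the serum albumin made by the liver, was 7350 and 934 CPM in them and at most 8.17 CPM elsewhere, and their lung epithelial sums (34.4 and 18.7 CPM) were the lowest of the metastases. Skeletal muscle markers differed as well, with a sum of 10800 to 26300 CPM in primary tumours 1, 2, 3 and 5, 56.5 and 6.23 CPM in primary tumours 4 and 6, and 43.1 to 9760 CPM in metastases. In bulk tissue, fewer cells of a type and less RNA per cell cannot be told apart.

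In primary tumours 4 and 6 these genes were near the limit of detection. Primary tumour 4 had 0 counts of Lmod1, 1 of Actg2, 1 of Cnn1, 2 of Myh11, 4 of Tagln, 5 of Des, 5 of Notch3, 9 of Acta2 and 12 of Rgs5. Primary tumour 6 had 0 counts of Actg2, 2 of Tagln, 3 of Cnn1, 3 of Lmod1, 5 of Myh11, 5 of Des, 49 of Notch3, 77 of Acta2 and 97 of Rgs5. A count of 0 allows up to 3 counts, or 0.153 CPM in primary tumour 4 and 0.101 CPM in primary tumour 6, for counting error only. Cspg4 alone stayed above 100 counts in both libraries, with 225 and 155 counts (11.5 and 5.19 CPM). Other pericyte genes were at 0 there too: 7 of 18 in primary tumour 4 and 5 of 18 in primary tumour 6. Kcnj8, Higd1b and Vtn were at 0 in both. The share of all genes at 0 was not counted. Pdgfrb, of the same list, was 4.33 and 185 CPM in primary tumours 4 and 6, against 142 to 205 CPM in the others. The 18 summed to 96.6 and 275 CPM, against 1020 to 1840 CPM in the other primary tumours and 196 to 878 CPM in metastases. Other contractile genes summed to 3090 and 2600 CPM, against 3190 to 4420 CPM in other primary tumours and 1070 to 3540 CPM in metastases.

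**Figure D1:**
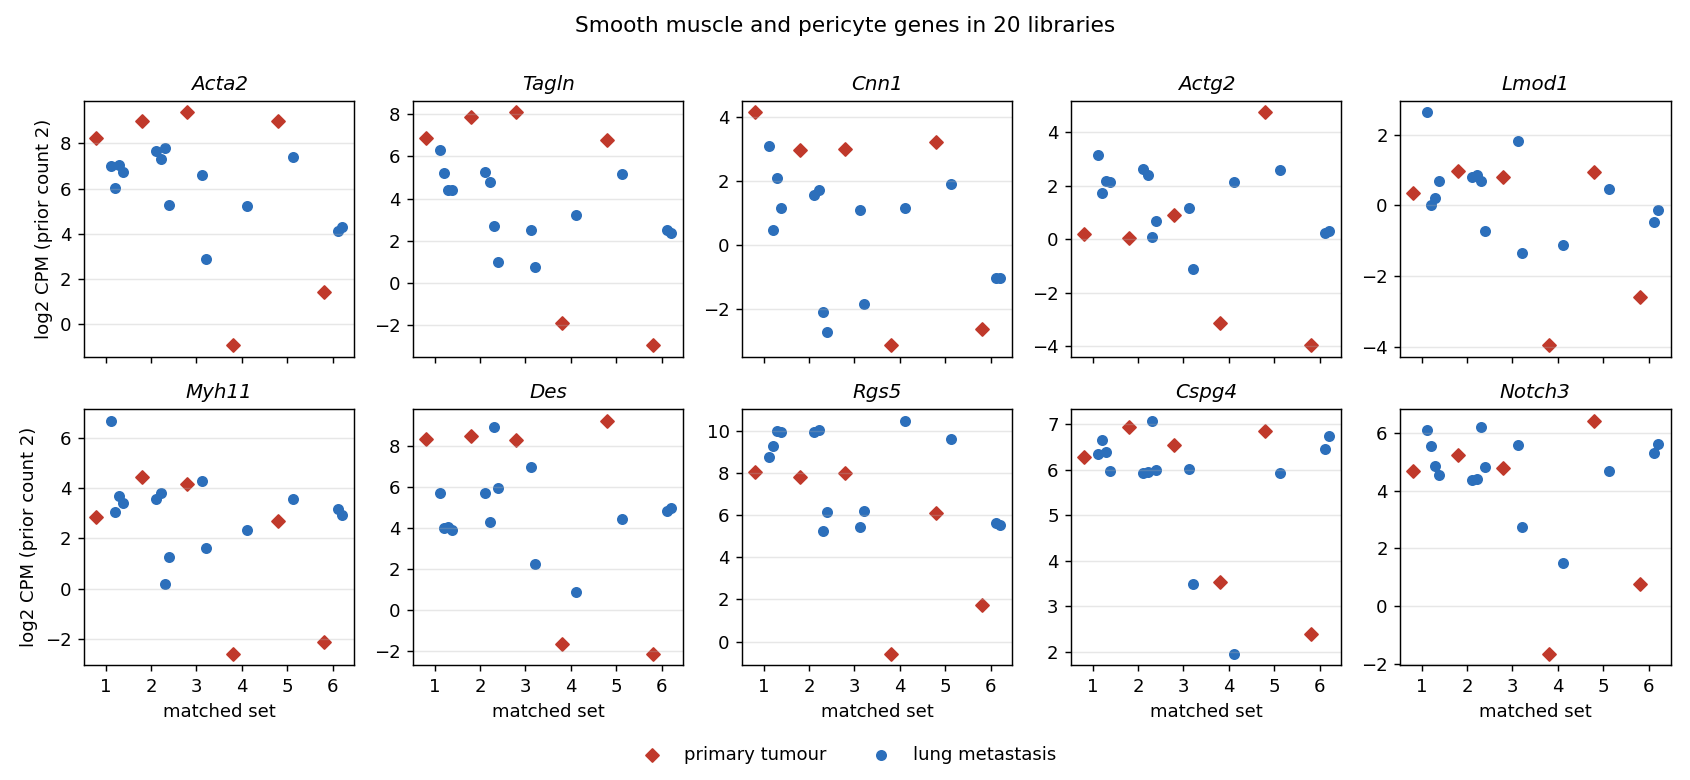
Level of each of the 10 genes (vertical axis, log2 CPM with a prior count of 2) by matched set (horizontal axis), with red diamonds for the 6 primary tumours and blue circles for the 14 lung metastases. Primary tumours 4 and 6 are the lowest diamonds in every panel, and Rgs5 in the metastases lies in an upper band from 429 CPM and a lower band up to 74.1 CPM.

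Acta2, smooth muscle alpha-actin, had the highest level of the contractile genes. It was 304, 506, 668 and 503 CPM in primary tumours 1, 2, 3 and 5, and 0.458 and 2.58 CPM in primary tumours 4 and 6. In the metastases it ran from 7.20 CPM (3-2) through a median of 102 CPM to 223 CPM (2-3). Every metastasis therefore lay below those 4 primary tumours and above the other pair. The edgeR fit with the matched set as a block gave a log2 fold change of -1.11 ± 0.825 (SE) for metastasis over primary tumour, with an adjusted p of 0.404. With sets 4 and 6 left out together it was -2.11 ± 0.556 (adjusted p = 0.0319).

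Tagln, the actin-binding protein transgelin, ordered the groups as Acta2 did. It was 115, 234, 270 and 110 CPM in primary tumours 1, 2, 3 and 5 and 0.204 and 0.067 CPM in primary tumours 4 and 6. Metastases ran from 1.63 CPM (3-2) through a median of 15.1 to 78.3 CPM (1-1), again all between the 2 kinds of primary tumour. The log2 fold change was -2.30 ± 1.13 (edgeR, adjusted p = 0.191), and -3.52 ± 0.805 without sets 4 and 6 (adjusted p = 0.0171). Tagln overlaps Pcsk7 on the opposite strand, and the strand setting of the counting is not given in the sources used here. Pcsk7 averaged 31.7 CPM over the 20 libraries, and its part in the Tagln counts was not tested.

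Cnn1, calponin, a brake on the actomyosin of smooth muscle, was 7.77 to 17.9 CPM in primary tumours 1, 2, 3 and 5 and 0.0894 (2-4) to 8.48 CPM (1-1) in metastases, with a median of 2.14. Those ranges met at their edge only, through metastasis 1-1. Its log2 fold change was -1.33 ± 0.832 (edgeR, adjusted p = 0.316), and -2.14 ± 0.742 without sets 4 and 6 (0.0849).

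Actg2, the gamma-actin of gut and other visceral smooth muscle, was highest in 1 primary tumour. It was 26.6 CPM in primary tumour 5, 0.956 to 1.82 CPM in primary tumours 1, 2 and 3, 0.0509 CPM in primary tumour 4 and 0 in primary tumour 6. Metastases ran from 0.398 (3-2) through a median of 3.76 to 8.73 CPM (1-1). All 4 metastases of set 1 (3.26 to 8.73 CPM) were above their primary tumour at 1.08 CPM, whereas metastasis 5-x at 5.93 CPM was below its own. The log2 fold change was 1.75 ± 0.948 (edgeR, adjusted p = 0.237), and 0.57 ± 0.856 without sets 4 and 6 (0.742). With no replicate block its sign turned, at -0.52 ± 0.879 (0.742).

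Lmod1, leiomodin, which nucleates actin filaments in smooth muscle, was the lowest of the 10 in level. It was 1.22 to 1.91 CPM in primary tumours 1, 2, 3 and 5 and 0.326 (3-2) to 6.17 CPM (1-1) in metastases, with a median of 1.21. The 2 groups overlapped and the log2 fold change was 0.72 ± 0.645 (edgeR, adjusted p = 0.501), or 0.10 ± 0.66 without sets 4 and 6 (0.951).

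Myh11, the myosin heavy chain of smooth muscle, was highest in 1 metastasis. It was 7.09, 21.6, 17.98 and 6.35 CPM in primary tumours 1, 2, 3 and 5. Metastasis 1-1 had 103 CPM, and the other 13 metastases ran from 1.06 CPM (2-3) to 19.5 CPM (3-1). Metastasis 1-1 also had the highest summed endothelial markers (2730 CPM) and lung epithelial markers (13100 CPM) of all 20 libraries, and the part of these tissues in its Myh11 was not tested. The log2 fold change was 0.76 ± 0.969 (edgeR, adjusted p = 0.653), and -0.17 ± 0.892 without sets 4 and 6 (0.937).

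The level of Acta2 relative to Myh11 was set out per kilobase of exon, which allows genes to be compared. This ratio was 81.1 to 274 in primary tumours 1, 2, 3 and 5. In metastases it ran from 4.34 (1-1) through a median of 31.4 to 726 (2-3). Metastasis 2-3 thus joined the highest Acta2 of the metastases with the lowest Myh11. It is the library with Alb at 7350 CPM, and the part of that tissue in its levels was not tested. The ratio of Tagln to Acta2 per kilobase was 0.241 to 0.512 in those 4 primary tumours and 0.0317 to 0.668 in metastases, lowest again in 2-3. Per kilobase the median levels over the 20 libraries were 54.1 for Acta2, 52.9 for Rgs5, 10.7 for Tagln, 8.10 for Des, 5.97 for Cspg4, 3.48 for Notch3, 1.29 for Actg2, 1.13 for Myh11, 0.796 for Cnn1 and 0.322 for Lmod1 (CPM per kilobase). Neighbours in that order overlapped in their ranges over metastases, such as Acta2 (3.28 to 101) and Rgs5 (8.40 to 315).

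Des encodes desmin, the intermediate filament of smooth, skeletal and heart muscle. It was 334, 360, 324 and 613 CPM in primary tumours 1, 2, 3 and 5 and 0.254 and 0.168 CPM in primary tumours 4 and 6. In metastases it ran from 1.80 CPM (4-1) through a median of 25.7 to 500 CPM (2-3), and 2-3 was the only metastasis within the range of the 4 primary tumours. Metastasis 2-3 also had the highest skeletal muscle sum of the metastases (9760 CPM) and the highest Myog, a myogenic regulator, of all libraries (339 CPM). The log2 fold change was -1.87 ± 1.09 (edgeR, adjusted p = 0.275), and -2.96 ± 0.907 without sets 4 and 6 (0.0561). With the skeletal muscle index (mean log2 CPM of 14 markers) as a covariate it turned to 2.22 (adjusted p = 0.00265), where 16.1% of genes were called higher. That index is itself lower in primary tumours 4 and 6.

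**Figure D2:**
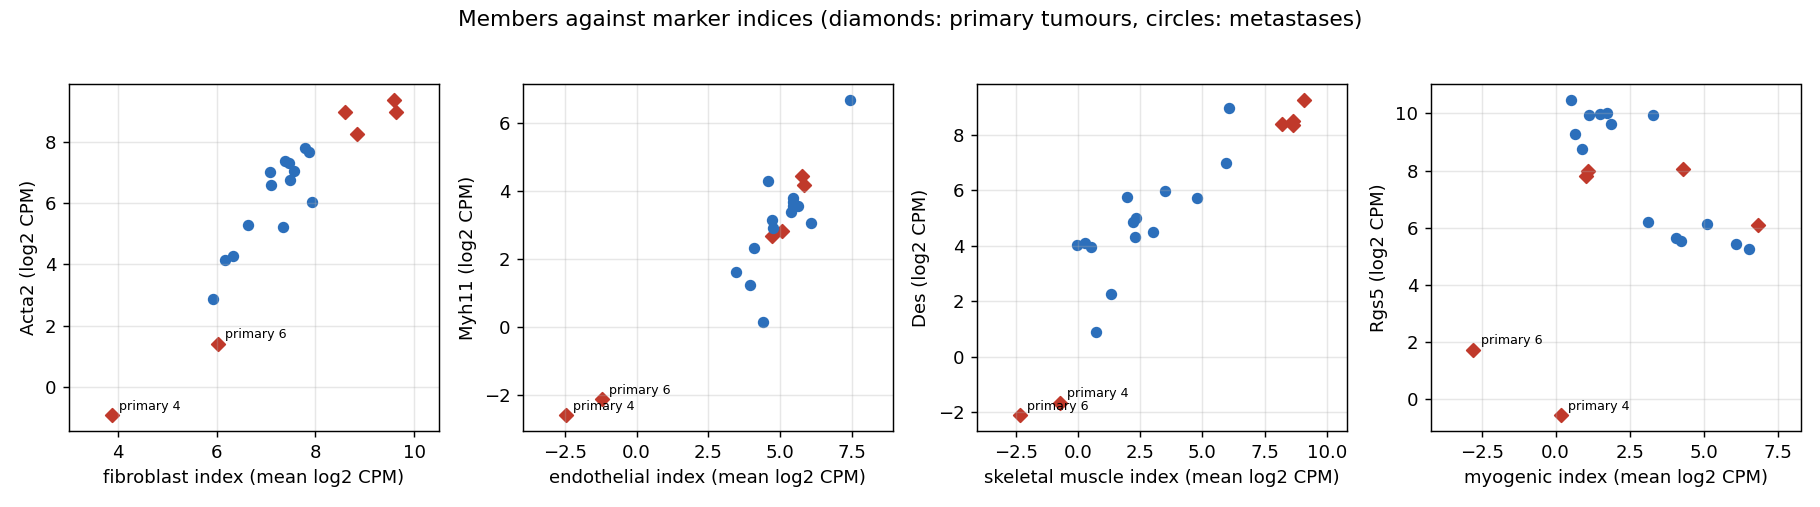
Acta2, Myh11, Des and Rgs5 (vertical axes, log2 CPM) against the mean log2 CPM of fibroblast, endothelial, skeletal muscle and myogenic markers (horizontal axes), with red diamonds for primary tumours and blue circles for metastases. Primary tumours 4 and 6, named in each panel, lie apart, and the metastases of the Rgs5 panel lie in 2 bands, from 429 CPM upward and up to 74.1 CPM.

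Rgs5, a regulator of G protein signalling that marks pericytes, separated the metastases into 2 bands. It was 429, 619, 1015 and 978 CPM in metastases 1-1, 1-2, 1-3 and 1-4. It was 979 and 1045 CPM in 2-1 and 2-2, 1432 CPM in 4-1 and 792 CPM in 5-x. The other 6 metastases had 38.2 (2-3), 70.8 (2-4), 43.5 (3-1), 74.1 (3-2), 49.7 (6-1) and 46.8 CPM (6-2). No metastasis lay between 74.1 and 429 CPM, and set 2 had 2 metastases in each band. The myogenic index (mean log2 CPM of 10 myogenic markers) was 6.54 in 2-3, 6.11 in 3-1, 5.13 in 2-4, 4.23 in 6-2, 4.08 in 6-1 and 3.14 in 3-2. It was 3.28 in 2-1 and at most 1.86 in the 7 others. Cd163, a macrophage receptor, was at most 8.49 CPM in the 6 metastases with low Rgs5 and at least 29.6 CPM in the other 8. The part of these cells in Rgs5 was not tested. Over the 14 metastases, Spearman rho of Rgs5 with the index (mean log2 CPM) of 18 other pericyte genes was 0.28. With the same index it was 0.23 for Cspg4, 0.28 for Notch3 and 0.86 for Tagln. Primary tumours 1, 2, 3 and 5 had 265, 227, 254 and 67.7 CPM, and primary tumours 4 and 6 had 0.611 and 3.25 CPM. The mean log2 CPM of the metastases was above the primary tumour in sets 1, 4, 5 and 6, level with it in set 2 (0.01), whose metastases lay on both sides, and below it in set 3. Its log2 fold change was 1.85 ± 1.12 (edgeR, adjusted p = 0.293). Without sets 4 and 6 it was 0.81 ± 0.99 (0.675).

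Cspg4, the NG2 proteoglycan of pericytes and of several progenitor cells, had the smallest ratio of highest to lowest level over the 20 libraries. It was 78.2, 123, 93.2 and 115 CPM in primary tumours 1, 2, 3 and 5, and 11.5 and 5.19 CPM in primary tumours 4 and 6. In 12 metastases it was 60.4 to 135 CPM, and it was 11.2 CPM in 3-2 and 3.82 CPM in 4-1. Metastasis 4-1 thus had the lowest Cspg4 of all 20 libraries together with the highest Rgs5. The highest library was 35.4-fold above the lowest, against 339-fold for Notch3 and 2350-fold for Rgs5, whose lowest level was in primary tumour 4. Among metastases alone Cspg4 did not vary least. There, Lmod1 (0.326 to 6.17 CPM), Actg2 (0.398 to 8.73), Notch3 (2.72 to 74.0) and Acta2 (7.20 to 223) had narrower ratios than Cspg4 (3.82 to 135). Those of the other genes were wider. The log2 fold change of Cspg4 was -0.34 ± 0.528 (edgeR, adjusted p = 0.718), and -0.61 ± 0.381 without sets 4 and 6 (0.349).

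Notch3, the Notch receptor of mural cells, was 25.4, 37.8, 27.8 and 86.3 CPM in primary tumours 1, 2, 3 and 5 and 0.254 and 1.64 CPM in primary tumours 4 and 6. Metastases ran from 2.72 CPM (4-1) through a median of 28.8 to 74.0 CPM (2-3). Like Cspg4, Notch3 was lowest in 4-1 and 3-2 (6.55 CPM) and highest in 2-3 among metastases. Its log2 fold change was 0.75 ± 0.659 (edgeR, adjusted p = 0.488), and -0.08 ± 0.575 without sets 4 and 6 (0.954).

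Across the comparison of lung metastases with primary tumours, which asks what differs between the 2 sites, 0 of the 10 genes passed an adjusted p of 0.05 by edgeR. None had an unadjusted p under 0.05, and the share of all genes at that threshold was not counted. DESeq2 called Actg2 higher (1.83, adjusted p = 0.0364) and Tagln lower (-2.29, 0.0411), where it called 12.7% of genes higher and 10.2% lower. Over all 18452 genes tested, 13.8% were called by edgeR, 7.34% higher and 6.44% lower in metastases. The 10 genes had a median log2 fold change of 0.19, against 0.00 over all genes. Without sets 4 and 6, Acta2 and Tagln were the 2 genes called, both lower, where 5.66% of 18804 genes were called lower and 4.17% higher. The median of the 10 was then -0.39, against 0.03 over all genes. Leaving out primary tumours 4 and 6 but keeping all 14 metastases, with no replicate block, also called Acta2 (-2.26, adjusted p = 0.0142) and Tagln (-3.08, 0.00621), where 5.61% of genes were called lower and 5.13% higher. Those fits share the libraries of sets 1, 2, 3 and 5 and are not separate evidence. Without metastases 2-3 and 2-4, 0 of the 10 were called, where 1382 of 18211 genes were called higher and 1182 lower.

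Covariates for other tissue turned several signs. With the skeletal muscle index, edgeR called 4 genes higher, Actg2 (3.43), Lmod1 (1.98), Notch3 (2.36) and Des (2.22), where 16.1% of all genes were called higher. Values that were negative also turned for Acta2 (0.92, adjusted p = 0.38), Tagln (1.16, 0.537), Cnn1 (0.55, 0.71) and Cspg4 (0.88, 0.313). With the lung epithelial index, 0 of 10 were called, where 761 of 18452 genes were called higher and 525 lower. The sign turned for Lmod1 (-0.65, 0.725), Myh11 (-2.5, 0.241), Rgs5 (-0.85, 0.791) and Cspg4 (0.32, 0.86). Tagln was then -5.14 (0.109) and Cnn1 -4.74 (0.0531). Both indices differ between the groups themselves.

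The direction depended on the set. For Acta2, Tagln, Cnn1 and Des, the mean log2 CPM of the metastases was below the primary tumour in sets 1, 2, 3 and 5 and above it in sets 4 and 6. Metastasis 2-3 was an exception within its set, with more Des (500 CPM) than primary tumour 2 (360 CPM). The differences in log2 CPM for Tagln were -1.77, -4.45, -6.44 and -1.64 in sets 1, 2, 3 and 5, and 5.12 and 5.37 in sets 4 and 6. For Acta2 they were -1.54, -1.97, -4.66 and -1.59 in sets 1, 2, 3 and 5, and 6.14 and 2.81 in sets 4 and 6. The differences in sets 4 and 6 are measured against primary tumours with at most 77 counts of these 4 genes. When the difference was allowed to vary between sets, 0 of 10 genes passed by edgeR, where 4.10% of 18452 genes did. Tagln (adjusted p = 0.0629) and Acta2 (0.0913) had the smallest p, and 6 of the 10 had an unadjusted p under 0.05, as did 22.2% of all genes. With 1 primary tumour a set, the spread in that test comes from the metastases.

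**Figure D3:**
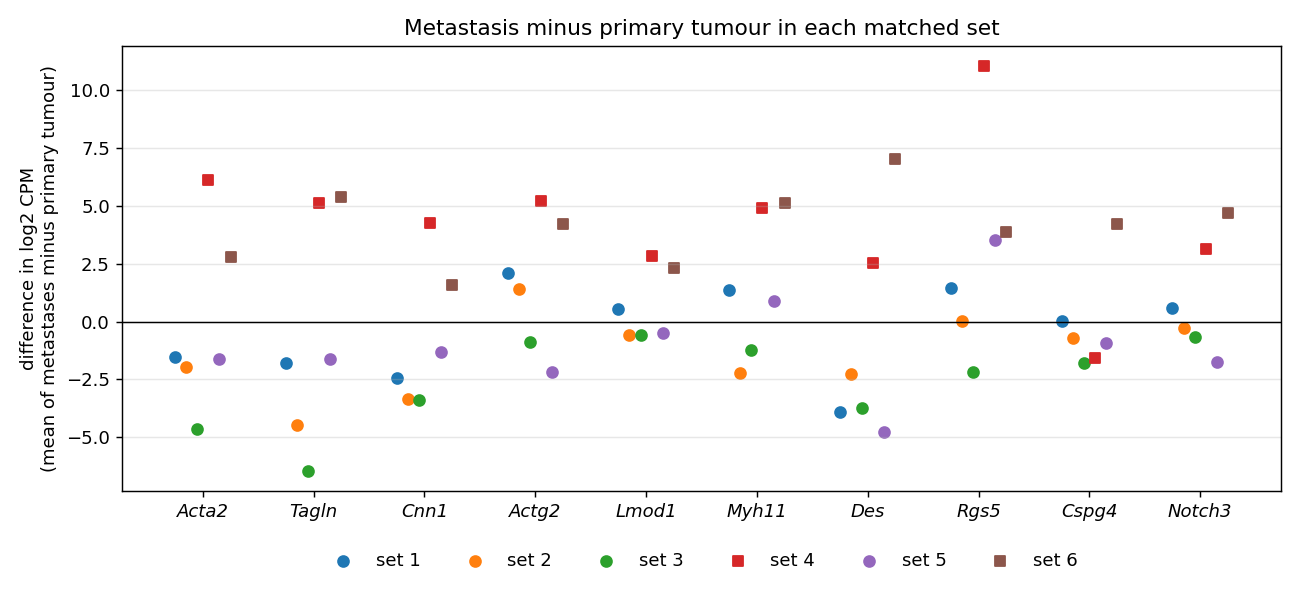
Difference in log2 CPM between the mean of the metastases and the primary tumour (vertical axis) for each of the 10 genes (horizontal axis), 1 point per matched set, with squares for sets 4 and 6 and circles for the others. The circles of Acta2, Tagln, Cnn1 and Des all lie below 0 and their squares above it, up to 7.04 for Des in set 6, while Rgs5 in set 4 reached 11.05.

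Metastases of different primary tumours were compared among the 12 metastases of sets 1, 2, 3 and 6. By edgeR 0 of 10 genes passed, where 0.321% of 19919 genes did. At an unadjusted p under 0.05 there were 3, Rgs5 (adjusted p = 0.106), Tagln (0.125) and Acta2 (0.143), a threshold that 29.5% of all genes passed. DESeq2 called the same 3, where it called 25.1% of genes. The set means of Rgs5 ran from 5.59 log2 CPM in set 6 to 9.48 in set 1, a spread of 3.89, but its 4 metastases of set 2 were themselves 4.77 apart. Those of Acta2 ran from 4.21 in set 6 to 7.02 in set 2, with the 2 metastases of set 3 apart by 3.72. The 2 metastases of set 6 were within 0.36 of each other for all 10 genes. Without set 2, edgeR called Rgs5 (adjusted p = 0.00347) and Tagln (0.0283), where it called 12.2% of genes. Without metastasis 3-1 it called Acta2 (0.0126) and Cspg4 (0.0275), where it called 26.6% of genes. Without metastases 2-3 and 2-4 it called Rgs5 (0.00101) and Tagln (0.019), where it called 19.4% of genes.

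The 10 genes did not vary as 1 block among the metastases. Correlations of log2 CPM over the 14 metastases are given as a description, since metastases of 1 set are not independent and each pair of genes shares its library. Cspg4 and Notch3 went together (Pearson r 0.95, Spearman rho 0.89, and r 0.78 without the 2 metastases farthest from the median of Cspg4). Actg2 went with Cnn1 (0.89 and 0.90) and with Tagln (0.89 and 0.86), and Tagln with Cnn1 (0.86 and 0.78). Acta2 was less tied to Myh11 (0.30 and 0.36) than to Tagln (0.71 and 0.65), and those 2 correlations were not tested against each other. The 2 metastases farthest from the median of the gene named first were then left out. Pearson r was 0.88 for Actg2 with Cnn1, 0.87 for Actg2 with Tagln, 0.77 for Tagln with Cnn1, 0.19 for Acta2 with Myh11 and 0.56 for Acta2 with Tagln. Des had r of 0.82 with Notch3 (0.67 without the 2 metastases farthest from the median of Des). Its r was -0.01 with Tagln, -0.06 with Myh11 and -0.21 with Cnn1. For these pairs the 2 metastases farthest from the median of Tagln, of Myh11 or of Cnn1 were left out. Without them r was -0.18, 0.39 and 0.27, so the sign turned for Myh11 and Cnn1. Rgs5 lies in 2 bands among the metastases, so no Pearson r with the other 9 genes is given. By rank, which the bands also enter, it ran against Notch3 (rho -0.71), Des (-0.67) and Cspg4 (-0.61). It went with Actg2 (0.68), Cnn1 (0.65) and Tagln (0.53).

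**Figure D4:**
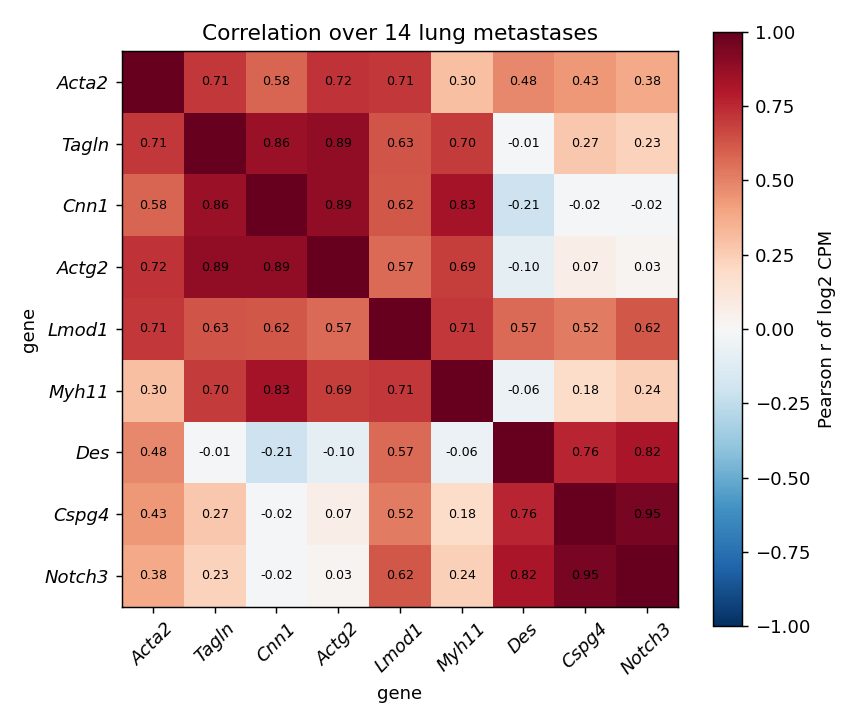
Pearson r of log2 CPM over the 14 lung metastases for each pair of 9 genes, Rgs5 left out (both axes), from blue at -1 to red at 1, with r printed in each cell. Tagln, Cnn1 and Actg2 form a red block with r of 0.86 to 0.89, Cspg4 and Notch3 have the highest r at 0.95, and Des with Tagln, Cnn1, Actg2 and Myh11 lies between -0.21 and -0.01.

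Markers of other cell types moved with some of these genes, and their part in the levels was not tested. Over the 14 metastases Acta2 had r 0.86 (rho 0.74) with the index of 8 fibroblast markers, Tagln 0.91 (0.85) and Myh11 0.80 (0.68) with the index of 10 endothelial markers, and Des 0.80 (0.82) with the skeletal muscle index. Cnn1 (0.82 and 0.72), Myh11 (0.81 and 0.67), Tagln (0.75 and 0.78) and Actg2 (0.65 and 0.78) also followed the lung epithelial index. Actg2 (0.88 and 0.78), Tagln (0.88 and 0.86) and Cnn1 (0.87 and 0.70) followed the index of 8 Schwann cell markers too, so these genes moved with more than 1 index. Notch3 followed the index of 15 other Notch pathway genes (0.86 and 0.91). The genes most like Acta2 over the 20 libraries, of 10928 genes averaging 2 log2 CPM or more, were Thy1 (r 0.969), Cilp (0.967), Rab3il1 (0.963), Cyth4 (0.963) and Cpxm1 (0.959). Thy1 is a surface glycoprotein of fibroblasts and Cilp a matrix protein. Which cells Rab3il1, Cyth4 and Cpxm1 mark was not examined. Those most like Myh11 were Ighm (0.955), Acvrl1 (0.945), Mfap4 (0.939), Pdzd2 (0.934) and Ramp2 (0.931). Ighm is an immunoglobulin heavy chain gene, and Acvrl1 is a TGF-beta family receptor of endothelium. Those most like Rgs5 by the same measure, which its 2 bands enter, were Rgs4 (0.965), Cd163 (0.964), Ccl6 (0.963), Clec4d (0.962) and Smpdl3a (0.958). Rgs4 is of the same family, and Cd163 is a macrophage scavenger receptor. Without primary tumours 4 and 6 these r were 0.909 to 0.962 for Acta2, 0.828 to 0.879 for Myh11 and 0.895 to 0.946 for Rgs5.

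Other genes of the contractile programme and its regulators were counted from lists. Of 20 other contractile genes 0 rose and 4 fell in metastases by edgeR, where 7.34% of all genes were called higher and 6.44% lower: Fhl2, a LIM-domain partner of SRF (-1.58 ± 0.312, adjusted p = 0.00507), Synm, which pairs with desmin (-2.64 ± 0.538, 0.00576), Filip1l (-1.43 ± 0.376, 0.0203) and Tpm1, a tropomyosin (-1.02 ± 0.279, 0.0241). Synm was 47.5 to 117 CPM in primary tumours 1, 2, 3 and 5 and at most 16.6 CPM in every metastasis. Synm and Tpm1 are expressed in skeletal muscle too. The median of these 20 was -0.40, and without sets 4 and 6 it was -0.68 with 6 lower, where 5.66% of all genes were. Of 18 other pericyte genes 1 fell, the transcription factor Ebf1 (-2.31 ± 0.678, 0.0331), or 5.56%, which is near the 6.44% of all genes. Their median was 0.15, and without sets 4 and 6 it was -0.87 with 4 lower, beside 5.66% of all genes.

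Of 20 genes of SRF, its cofactors and their cytoskeletal targets, edgeR called 0. At an unadjusted p under 0.05 it had 1 higher and 3 lower, and DESeq2 called 1 higher and 2 lower. Ankrd1, a muscle ankyrin repeat protein (-1.74, adjusted p = 0.0606), and Srf itself (-0.83, 0.0759) had the smallest p, and the median was -0.11. Myocd, the SRF cofactor of smooth and cardiac muscle, had 0 counts in primary tumours 4 and 6 and at most 2.71 CPM elsewhere. Of 14 Notch pathway genes tested by edgeR 1 fell, or 7.14%, near the 6.44% of all genes. It was Rbpj, the DNA-binding partner of Notch (-1.05 ± 0.216, edgeR adjusted p = 0.00578), and the median of the 14 was 0.29. Without sets 4 and 6 edgeR called 0 Notch pathway genes, beside 4.17% of all genes higher and 5.66% lower. When p was left unadjusted (threshold 0.05), 3 of them were lower, and the share of all genes was not counted.

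Of 20 genes of the PDGF, TGF-beta and angiopoietin pathways, which act between endothelium and mural cells, 4 rose and 2 fell, beside 7.34% and 6.44% of all genes. Angpt1, the angiopoietin of mural cells (1.62 ± 0.266, 0.00203), and Angpt2 (1.76 ± 0.398, 0.00984) were among those that rose, as was the ligand Tgfb2 (0.94 ± 0.224, 0.0124). Pdgfra, a receptor of fibroblasts (-2.42 ± 0.534, 0.00858), and its ligand Pdgfa (-0.67 ± 0.174, 0.0189) fell. Tgfb2 and Pdgfa were named after their values were seen. The median of these 20 was -0.01, and without sets 4 and 6, 2 were higher and 2 lower with a median of -0.47, beside 4.17% and 5.66% of all genes.

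Counts in the marker lists stand beside those of all genes. Of these edgeR called 7.34% higher and 6.44% lower, and DESeq2 12.7% higher and 10.2% lower. The share at an unadjusted p was not counted. Among the marker lists, 0 of 10 endothelial genes passed by edgeR (1 higher at an unadjusted p under 0.05, 2 higher by DESeq2). Their median was 0.64, or -0.29 without sets 4 and 6. Of 6 genes of airway and lung mesenchyme Lgr6 (3.05 ± 0.758), Tbx4 (3.87 ± 0.797) and Tbx5 rose, the last from 6 counts over all 6 primary tumours. The sum of the 6 was 387 CPM in 3-2 and 356 CPM in 2-4, with lung epithelial sums of 343 and 18.7 CPM. It was 241 CPM in 1-1 and 95.6 CPM in 5-x, with lung epithelial sums of 13110 and 9803 CPM. Their mean log2 CPM was highest in 1-1 (4.28). Over the 14 metastases Acta2 had r -0.52 (rho -0.61) with that mean. Which cells made these RNAs was not tested. All 10 lung epithelial markers rose, 8 of 14 skeletal muscle markers and 3 of 8 fibroblast markers fell, and 3 of 10 cardiomyocyte markers rose. Of 6 Schwann cell markers tested 1 rose, Mal, and 1 fell. Of 10 myogenic markers 0 passed by edgeR, also at an unadjusted p under 0.05, and 1 was higher by DESeq2.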

How the data were processed

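RNA was measured in 6 primary tumours and 14 lung metastases. The labels' protocols name a Direct-zol kit for RNA and stranded libraries with ribosomal RNA removed. Tools in the submitters' processing notes are Trimmomatic 0.36, STAR (version string 5.5.4b, doubtful as a STAR release) and HTSeq, with the mm10 build. The strand setting and annotation release were not given in the sources used here. The authors deposited whole-number read counts per gene, not normalized. Symbols were found for 51633 of 51826 identifiers, with coordinates and exon lengths from GENCODE M21 (GRCm38).

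Genes passing filterByExpr (minimum count 10) were tested with edgeR 4.0.16 in R 4.3.3 (TMM, robust quasi-likelihood, Benjamini-Hochberg adjustment over all genes, threshold 0.05), with the matched set as a block and 13 residual degrees of freedom. Titles give the pairing. Over 1000 variable genes, deviations of primary tumours and their metastases had a mean correlation of 0.0592 (-0.177 to 0.293 by set). SE is the fold change divided by the root of F. Log2 CPM used a prior count of 2. Alternatives included DESeq2 1.42.0, RLE factors, no filter, summed metastases, covariates and left-out libraries or sets. The test of varying differences, the fits without primary tumours 4 and 6 or metastases 2-3 and 2-4, and the correlations without them were added after the data were seen.

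The 10 genes and all lists were chosen with earlier results of these data known. Named genes are the 10, up to 4 per list past the threshold by smallest p (else 2), and the 5 most correlated with Acta2, Myh11 and Rgs5; single-gene results for some list genes are not reported here. Metastases 6-1 and 6-2 were closest, but were not copies: over 19528 genes the chi-square divided by its degrees of freedom was 26.3. The fits were tested on simulated data with 50 genes changed at each fold. For metastasis against primary tumour, edgeR recovered 16% of 2-fold, 64% of 4-fold and 76% of 8-fold changes. For the test between sets, with set 1 changed, it recovered 0%, 30% and 54%. A gene that was not called may therefore still differ.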

Additional observations from a re-analysis of the deposited data

Results flagged for a closer look

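Of 30 groups checked for a library far from the rest (each of 10 genes among the 6 primary tumours, and among the 4 metastases of set 1 and of set 2), 4 were picked out, where chance gives about 1 in 20. Metastasis 1-1 stood above the other metastases of set 1 for Myh11 (103 CPM against 8.31 to 12.8) and for Des (53.3 CPM against 15.3 to 17.0). Metastasis 2-3 stood above the rest of set 2 for Cspg4 (135 CPM against 60.6 to 64.1), and metastasis 2-4 below it for Lmod1 (0.536 CPM against 1.54 to 1.76). These 2 libraries had Alb, a liver gene, at 7350 and 934 CPM (2.01 and 2.30 CPM in 2-1 and 2-2) and lung epithelial sums of 34.4 and 18.7 CPM (2928 and 3474 CPM in 2-1 and 2-2). Metastasis 1-1 had summed skeletal muscle markers of 541 CPM against 43.1 to 132 CPM in the rest of set 1, and endothelial markers of 2733 CPM against 541 to 988 CPM. The part of these tissues in its Myh11 and Des, and of liver in the levels of 2-3 and 2-4, was not tested.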

How the results depend on the processing

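For metastases against primary tumours, the counts of 0 higher and 0 lower were also found with no replicate block, RLE factors, no filter on low counts, summed metastases, a covariate for lung epithelium, metastases 2-3 and 2-4 left out together, and each set or metastasis left out in turn (0 to 0). Sets 4 and 6 left out together gave 2 lower, as did no replicate block with primary tumours 4 and 6 left out. DESeq2 gave 1 higher and 1 lower. The skeletal muscle index as a covariate gave 4 higher, Actg2, Lmod1, Notch3 and Des, where 16.1% of genes were called higher and Des turned to 2.22. With that covariate 4 uncalled values also changed sign (Acta2 0.92, Tagln 1.16, Cnn1 0.55, Cspg4 0.88), as did 4 with the lung epithelial index (Lmod1 -0.65, Myh11 -2.5, Rgs5 -0.85, Cspg4 0.32). The cause of these changes was not tested. The fit with no replicate block gave Acta2 -1.68 (adjusted p = 0.175), Tagln -2.49 (0.0701) and Actg2 -0.52 (0.742), the last opposite in sign to the fit with the block. Between sets, the count of 0 was 3 by DESeq2, 2 without metastases 2-3 and 2-4, and ran from 0 to 2 with a set or metastasis left out. A lone metastasis left in set 3 or 6 was assumed to vary like the others. Low counts limit Actg2, Lmod1, Cnn1, Tagln, Myh11 and Des in primary tumours 4 and 6, which have at most 5 counts of each. The totals of these 2 libraries, 26287783 and 30390534 counts, lay within the range of the series.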
